A study of Mus musculus with 20 samples.

Results

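The genes described here handle heme and iron in macrophages. They are the 10 rows, of 59311 in the deposited gene table, whose symbol is Hmox1, Blvra, Blvrb, Fth1, Ftl1, Slc11a1, Slc40a1, Tfrc, Cd163 or Ireb2, and all 10 were present once. RNA was sequenced from Ly6Chi and Ly6Clo monocyte-derived macrophages (MoMac) sorted from the livers of 10 male C57BL/6 mice (C57BL/6 J in the study's methods), 10 to 12 weeks old, all of which had received carbon tetrachloride (CCl4, 0.6 ml/kg) for 4 weeks to induce liver fibrosis. Mice 16 to 20 were also given 0.25 mg/kg acetyl-6-formylpterin (Ac-6-FP), which binds MR1 without activating mucosal-associated invariant T (MAIT) cells, and mice 11 to 15 were given its vehicle (1% DMSO in phosphate-buffered saline). Livers were taken 2 days after the last CCl4 dose. The number shared by the titles of 2 libraries is taken as the mouse, so that each mouse gave 1 library of each subset. Each of the 4 groups thus held 5 libraries. All groups therefore share the CCl4 injury, and no library from an uninjured liver is compared here. The subsets were separated by surface Ly6C among F4/80 and CD11b positive cells from which cells with CD3, CD11c or Ly6G had been gated out.

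Macrophages that engulf red blood cells break down their heme with heme oxygenase, which releases iron and biliverdin, and biliverdin reductase turns biliverdin into bilirubin. The freed iron is held in ferritin, a shell built from heavy and light chains, or leaves the cell through ferroportin, the only known iron exporter. When iron is scarce, iron regulatory proteins bind a hairpin in the messenger RNA, the iron-responsive element. Bound near the start of the ferritin and ferroportin messages it blocks translation, and bound in the 3′ untranslated region of the transferrin receptor message it protects that message from decay.

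The hairpins are shown first because they mark messages among these in which the element was found. The translation that the element controls in ferritin and ferroportin is not measured by read counts. Messenger RNAs of the GENCODE M21 annotation (GRCm38, the same build as the mm10 coordinates of the table) were searched on their own strand for a C, 5 bases, the loop CAGTGN and 5 bases that pair with the first 5, G with T allowed. Each line gives 30 bases from 5′ to 3′ as DNA letters, with the 6 bases of the loop in capitals.

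Fth1 5′ UTR, chr19:9982732-9982761, plus strand: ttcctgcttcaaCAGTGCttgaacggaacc
Ftl1 5′ UTR, chr7:45459778-45459807, minus strand: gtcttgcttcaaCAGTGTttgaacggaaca
Slc40a1 5′ UTR, chr1:45925464-45925493, minus strand: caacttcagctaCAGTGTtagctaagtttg
Tfrc 3′ UTR, chr16:32631219-32631248, plus strand: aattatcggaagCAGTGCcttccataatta
Tfrc 3′ UTR, chr16:32631598-32631627, plus strand: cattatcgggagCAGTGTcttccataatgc
Tfrc 3′ UTR, chr16:32631663-32631692, plus strand: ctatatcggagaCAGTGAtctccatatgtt
Tfrc 3′ UTR, chr16:32631710-32631739, plus strand: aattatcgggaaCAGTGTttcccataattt

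Such a hairpin was found in 4 of the 10 genes, in the 5′ untranslated region of both ferritin chains and of ferroportin and at 4 places in the 3′ untranslated region of the transferrin receptor. The letters and pairing were present in the 5′ untranslated region of 0.136% of 20544 genes and in the 3′ untranslated region of 0.607% of 20937 genes. Of 90 further heme and iron genes, only Alas2, the erythroid form of the first enzyme of heme synthesis, held a match. The other 6 genes and the rest of the 90 had none, which says only that these letters and pairing were not found there. The search takes a strict form of the element, so an element that departs from it would be missed.

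Values are normalized counts, gene counts divided by the authors by 1 size factor per library, without division by gene length, so that levels are compared between libraries and not between genes. Reads on genes numbered 5693049 to 18682437 per library. A listed 0 leaves room for as many as 3 reads by counting error alone. The Ly6Clo vehicle library of mouse 13 stood apart: 5343 genes were detected in it, and of 6652 genes whose median over all libraries reached 100, it lacked 2765, so the main results are also given without that mouse. The 6 markers of Ly6Chi monocytes separated the subsets, with sums of 124595 to 212193 in Ly6Chi and 25804 to 42066 in Ly6Clo libraries. The 6 markers of Ly6Clo macrophages summed to 4296 to 22590.0 in Ly6Chi and 6820 to 49958 in Ly6Clo libraries, ranges that overlapped, and the Ly6Clo sum was the higher in 10 of 10 mice. In vehicle mice Nr4a1 of this list had the higher mean in Ly6Chi libraries (5656, against 3499 in Ly6Clo). The others had higher means in Ly6Clo, from a small step in Cx3cr1 (2078 in Ly6Chi, 2401 in Ly6Clo) to a large one in Treml4 (1194 and 5511). The 2 subsets also differed in RNA of other cells. The 5 measured markers of T and NK cells summed to between 0 and 589 in Ly6Chi and between 22013 and 48853 in Ly6Clo libraries, almost all of it from the NK cell genes Nkg7, Klrb1c and Ncr1, while Cd3e did not exceed 11.1 in any library. The 6 dendritic cell markers summed to 83.8 to 535 and to 7682 to 19398, and the 6 neutrophil markers to 4428 to 14746 and to 9865 to 125822, in Ly6Chi and Ly6Clo libraries. Of the 6 dendritic cell markers, 2 were at 0 in 10 or more libraries, and the sum does not say which of the 6 carry it. The neutrophil list did not move as one: Retnlg made up most of it in Ly6Clo libraries (means of 34529 with vehicle and 47250.0 with Ac-6-FP, against 127 and 101 in Ly6Chi), whereas Elane was higher in Ly6Chi libraries (means of 1257 and 2446, against 0.496 and 46.8) and Ly6g did not exceed 192 in any. The 5 hepatocyte markers summed to 395 to 1201 and to 1018 to 2896, the 5 endothelial markers, mostly through Pecam1, to 31.9 to 338 and to 0 to 4451, the 4 B cell markers to 80.2 to 743 and to 0 to 1131, and the 5 stellate cell markers to 0 to 968 and to 0 to 306. Every subset difference below lies between these libraries, and the part of these cells in it was not tested. In bulk RNA, fewer cells of a type and less RNA per cell cannot be told apart.

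**Figure D1:**
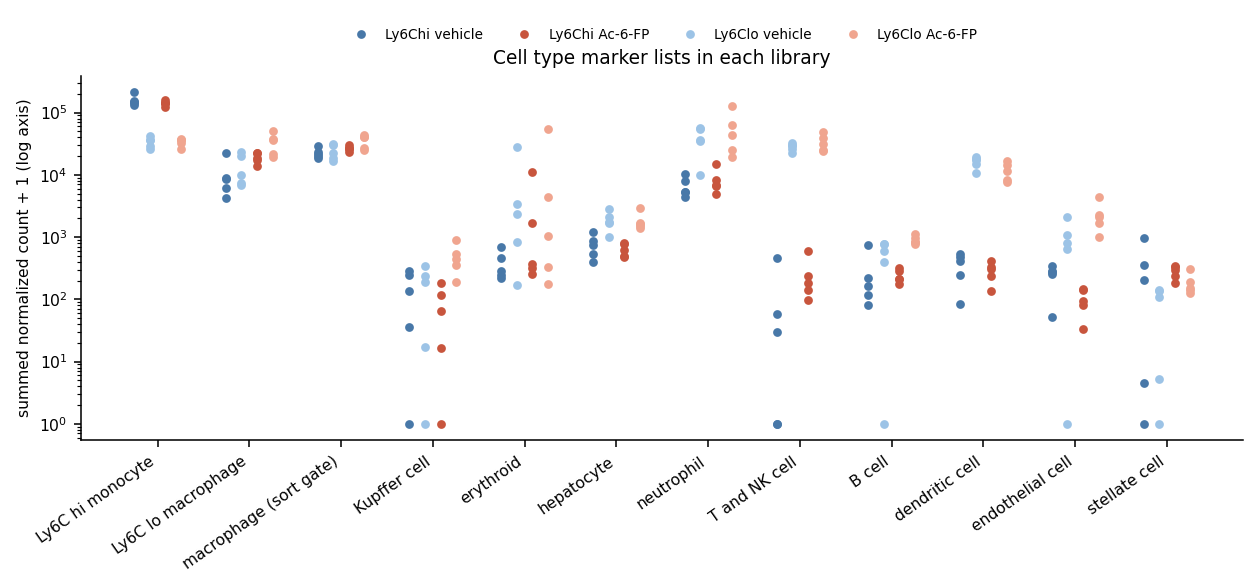
Summed normalized count plus 1 (log axis) of each cell type marker list in each of the 20 libraries, coloured by subset and treatment, 5 libraries per group. The T and NK cell and dendritic cell lists lie apart between the subsets, with every Ly6Clo library above every Ly6Chi library, and points at 1 are libraries where the whole list is at 0.

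Between the subsets, 3 of the 10 genes differed, and all 3 were higher in Ly6Clo MoMac: Fth1, the ferritin heavy chain, Blvrb, a biliverdin and flavin reductase, and Slc11a1, the NRAMP1 metal transporter of the phagosome. Of all 17248 genes tested, 5.22% (900) differed and 3.41% (588) were higher in Ly6Clo MoMac (limma on the difference Ly6Chi minus Ly6Clo within each of 10 mice, Benjamini-Hochberg adjusted p under 0.05). The median log2 difference, Ly6Chi minus Ly6Clo, was −0.59 over the 10 genes and −0.03 over all genes. The first of these medians rests in part on Cd163 (−0.42, SE 1.38), which was at 0 in many libraries, as were Slc40a1, Tfrc and Ireb2. Without mouse 13 the same 3 genes were called, and edgeR on the recovered reads called 2 of them, Fth1 and Blvrb.

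Fth1 (GSMG0019394, chr19:9980598-9985111) encodes the ferritin chain with the ferroxidase site that oxidizes iron for storage. In the vehicle mice 11 to 15 its normalized counts were 17279, 15994, 22175, 25007 and 22254 in Ly6Chi and 15476, 25916, 30704, 40039 and 47311 in Ly6Clo MoMac. In the Ac-6-FP mice 16 to 20 they were 22287, 23245, 21938, 19959.9 and 22979.7 in Ly6Chi and 48895, 56240.5, 41601, 55919.6 and 56830.5 in Ly6Clo MoMac. The Ly6Clo value was the higher in 9 of 10 mice, with mouse 11 the exception, and in the Ac-6-FP mice the subsets did not overlap. How many of all genes had subsets without overlap was not counted. Over all mice the level was 21312 ± 2779 (SD, n = 10) in Ly6Chi and 41893 ± 14087 (SD, n = 10) in Ly6Clo MoMac, a log2 difference of −0.89 (Ly6Chi minus Ly6Clo, SE 0.098, limma adjusted p = 0.000175), 1.85-fold. Without mouse 13 it was −0.90 (adjusted p = 0.000404). Within the Ac-6-FP mice alone it was −1.23 (adjusted p = 0.000491), and within the vehicle mice alone −0.56, which did not pass the threshold (adjusted p = 0.329).

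Ftl1 (GSMG0035907, chr7:45457945-45459886), the ferritin light chain that serves to nucleate the iron core, was not called between the subsets. Its normalized counts were 79282, 66735, 57847, 67241 and 80968 in Ly6Chi and 77580.0, 66361, 52539, 63244 and 75176 in Ly6Clo MoMac of mice 11 to 15. They were 81594, 72293, 71744, 72848 and 67760.2 in Ly6Chi and 84329.9, 78099, 66392, 92744 and 84449 in Ly6Clo MoMac of mice 16 to 20. The ranges overlapped in both treatments, and the Ly6Chi value was the higher in all 5 vehicle mice and in 1 of 5 Ac-6-FP mice (mouse 18). The log2 difference was −0.03 (SE 0.04, limma adjusted p = 0.671). With quantile normalization instead it turned to 0.42 and passed the threshold (adjusted p = 0.000582). Ftl1 overlaps 2 other annotated genes, 1 of them on the opposite strand, ferritin has processed pseudogenes, and the counting is not stated to use strand, so its counts may include reads of these. The other ferritin genes of the table, Ftmt and the Fthl17 family, were at 0 in every library.

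The ratio of the 2 ferritin chains within a library needs no scaling. Fth1 over Ftl1 was 0.298 ± 0.076 (SD, n = 5) with vehicle and 0.303 ± 0.029 (SD, n = 5) with Ac-6-FP in Ly6Chi MoMac, and 0.487 ± 0.189 (SD, n = 5) with vehicle and 0.640 ± 0.056 (SD, n = 5) with Ac-6-FP in Ly6Clo MoMac. In the Ac-6-FP mice every Ly6Clo ratio (0.580 to 0.720) lay above every Ly6Chi ratio (0.273 to 0.339). In the vehicle mice the Ly6Clo ratios spread from 0.199 to 0.633, and that of mouse 11 was 0.915 times its Ly6Chi ratio. A ratio of counts without division by length is not the ratio of chains in the shell, and no test was made of it.

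**Figure D2:**
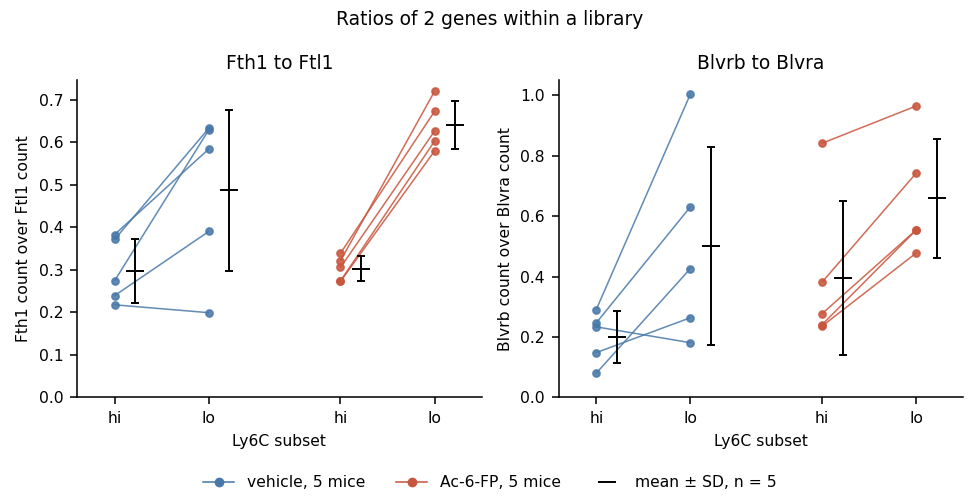
Ratio of Fth1 to Ftl1 counts (left) and of Blvrb to Blvra counts (right) in each library, by Ly6C subset, with lines joining the 2 libraries of a mouse and black marks for the mean ± SD of 5 libraries. Fth1 to Ftl1 rises from Ly6Chi to Ly6Clo MoMac in every mouse but mouse 11, and Blvrb to Blvra in every mouse but mouse 13.

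Of the genes of heme breakdown, Blvrb (GSMG0034211, chr7:27447978-27465986) was the one that differed between the subsets. In mice 11 to 15 its normalized counts were 506, 212, 636, 379.9 and 575 in Ly6Chi and 1096, 1204, 1079, 1331 and 1454 in Ly6Clo MoMac. In mice 16 to 20 they were 579, 514, 733, 1068 and 437 in Ly6Chi and 1064, 1210.3, 1015, 1505 and 844 in Ly6Clo MoMac. The Ly6Clo value was the higher in 10 of 10 mice, and in the vehicle mice the subsets did not overlap, which was not counted over all genes. The level was 564 ± 228 (SD, n = 10) in Ly6Chi and 1180.3 ± 204 (SD, n = 10) in Ly6Clo MoMac, a log2 difference of −1.15 (SE 0.225, limma adjusted p = 0.0101), 2.23-fold, and −1.25 (adjusted p = 0.0027) without mouse 13. Within each treatment alone the difference kept its direction and did not pass the threshold, at −1.50 in vehicle (adjusted p = 0.276) and −0.81 in Ac-6-FP mice (adjusted p = 0.0791).

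Blvra (GSMG0021737, chr2:127070657-127097076), the main biliverdin reductase of adult tissue, was not called. Its normalized counts in Ly6Chi MoMac were 2049.7, 2632, 2721, 2557 and 1973 in mice 11 to 15 and 2087, 1346, 3039, 1269 and 1849 in mice 16 to 20. In Ly6Clo MoMac they were 1737, 2822, 5948, 5043 and 1448 in mice 11 to 15 and 1919.5, 1629.8, 1830.2, 1559.9 and 1765 in mice 16 to 20. The 2 highest values came from the Ly6Clo vehicle libraries of mice 13 and 14, and the Ly6Chi value was the higher in 5 of 10 mice. The log2 difference was −0.12 (SE 0.189, limma adjusted p = 0.763), and it turned to 0.07 within the Ac-6-FP mice. The ratio of Blvrb to Blvra counts in a library was higher in Ly6Clo MoMac in 9 of 10 mice, by 1.15 to 5.30 times, and 0.776 times the Ly6Chi ratio in mouse 13.

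Hmox1 (GSMG0037465, chr8:75093617-75100592) encodes the inducible heme oxygenase. In mice 11 to 15 it was at 2835, 1242, 807, 1498 and 1756 normalized counts in Ly6Chi and 2504, 529, 1183, 797 and 2321 in Ly6Clo MoMac. In mice 16 to 20 it was at 2896, 1194, 2107, 2783 and 1929.9 in Ly6Chi and 2198, 3538, 1382, 4048 and 3049 in Ly6Clo MoMac. The subsets overlapped in both treatments, and the Ly6Chi value was the higher in 5 of 10 mice. The log2 difference was −0.04 (SE 0.251, limma adjusted p = 0.949) and changed sign to 0.27 within the vehicle mice and to between 0.045 and 0.112 without mouse 13, 15 or 17.

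Slc11a1 (GSMG0000425, chr1:74375201-74386052) encodes a transporter of iron and other divalent metals at the phagosome membrane. Whether that transport takes place in these mice is not measured by read counts. Its normalized counts were 2318, 1009, 1121, 786 and 1827 in Ly6Chi and 2181, 1336, 2152, 988 and 2236 in Ly6Clo MoMac of mice 11 to 15. They were 1845, 1223, 2261, 2083 and 2289 in Ly6Chi and 2464, 4882, 3384, 6567 and 4793 in Ly6Clo MoMac of mice 16 to 20. Within the Ac-6-FP mice every Ly6Clo library was above every Ly6Chi library, and within the vehicle mice the subsets overlapped. The share of all genes separated in this way was not counted. The log2 difference was −0.76 (SE 0.183, limma adjusted p = 0.034), 1.69-fold, with the Ly6Clo value the higher in 9 of 10 mice, and −0.69 (adjusted p = 0.0401) without mouse 13. This call was lost with edgeR (adjusted p = 0.0588), without pairing the libraries of a mouse (adjusted p = 0.0694), and without any 1 of mice 12, 14, 15, 17, 19 and 20 (adjusted p = 0.059 to 0.102). It held within the Ac-6-FP mice alone (−1.14, adjusted p = 0.0478) and not within the vehicle mice alone (−0.38, adjusted p = 0.648).

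Slc40a1 (GSMG0001548, chr1:45908070-45926519) encodes ferroportin. In Ly6Chi MoMac it was listed at 38.9, 0, 0, 0 and 0 normalized counts in mice 11 to 15 and at 32.5, 0, 156, 0 and 22.4 in mice 16 to 20. In Ly6Clo MoMac it was listed at 156, 134, 0, 31.1 and 0 in mice 11 to 15 and at 149, 67.3, 145, 39.4 and 420.2 in mice 16 to 20. The Ly6Clo value was the higher in 7 of 10 mice and the lower in 1, and both were 0 in 2. The difference did not pass the threshold (limma adjusted p = 0.077, and 0.0513 without mouse 13), although it did with quantile normalization (adjusted p = 0.0377). Its size rests on the constant added before the logarithm, since 6 Ly6Chi libraries were at 0. Ferroportin is also a gene of Kupffer cells, the resident macrophages of the liver, whose 6 markers summed to 0 to 281 in Ly6Chi vehicle, 0 to 181 in Ly6Chi Ac-6-FP, 0 to 342 in Ly6Clo vehicle and 187 to 899 in Ly6Clo Ac-6-FP libraries. Each of these 6 markers was at 0 in 10 or more of the 20 libraries, and their part in the Slc40a1 values was not tested.

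The remaining receptors and the sensor were listed at 0 in many libraries and were well above the 3 reads that a 0 allows in others, with up to 106 reads for Tfrc, 261 for Cd163 and 322 for Ireb2. Tfrc (GSMG0014892, chr16:32608896-32632794), the transferrin receptor of iron uptake, was listed at 0 in 8 of 10 Ly6Chi and 6 of 10 Ly6Clo libraries, and its highest value was 119 in the Ly6Clo Ac-6-FP library of mouse 17. Cd163 (GSMG0032457, chr6:124304651-124330527), the scavenger receptor for hemoglobin bound to haptoglobin, was listed at 0 in 4 of 10 libraries of each subset and reached 169 in Ly6Chi and 247 in Ly6Clo MoMac. Ireb2 (GSMG0039549, chr9:54863755-54912534), which encodes iron regulatory protein 2, was listed at 0 in 3 of 10 Ly6Chi and 6 of 10 Ly6Clo libraries and reached 296 and 176. In these 3 genes the mice did not share a direction, with the Ly6Chi value the higher in 2, 5 and 5 of 10 mice and the lower in 4, 3 and 2, and no difference passed the threshold (limma adjusted p = 0.627, 0.894 and 0.38).

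**Figure D3:**
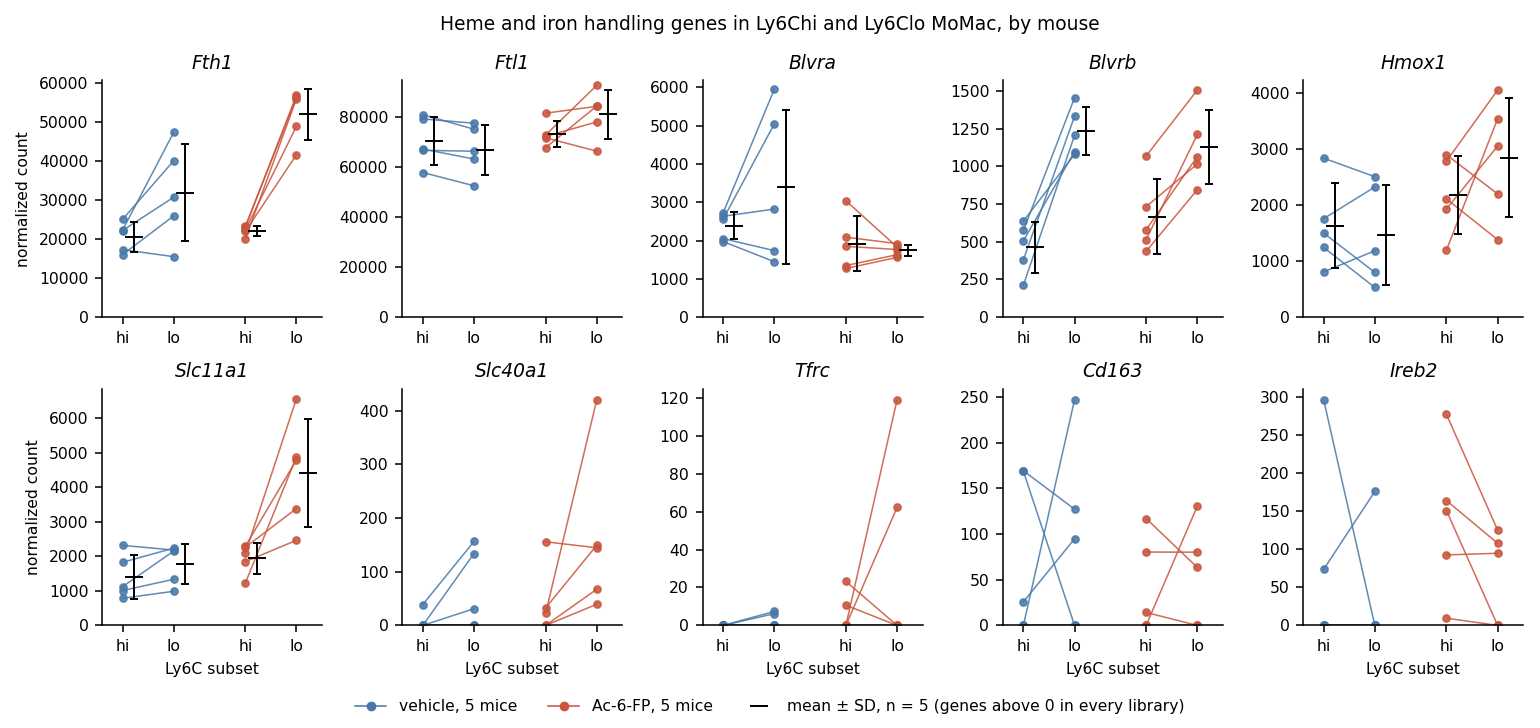
Normalized counts of the 10 genes in the Ly6Chi and Ly6Clo library of each mouse, with lines joining the 2 libraries of a mouse, and black marks for the mean ± SD of 5 libraries in the genes above 0 in every library. Fth1 and Blvrb rise from Ly6Chi to Ly6Clo MoMac in 9 and 10 of 10 mice, Ftl1 falls slightly in the 5 vehicle mice and rises in 4 of 5 Ac-6-FP mice, and Slc40a1, Tfrc, Cd163 and Ireb2 have many libraries at 0.

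With Ac-6-FP, none of the 10 genes passed the threshold in either subset. In Ly6Chi MoMac, 0.116% of the 17248 genes tested (20) were called and 0 of the 10, of which 0 also had an unadjusted p under 0.05, as 1553 of all genes did. In Ly6Clo MoMac 0.0812% (14) were called and again 0 of the 10, with an unadjusted p under 0.05 for 3, Slc11a1, Fth1 and Ftl1, and for 1656 of all 17248. With edgeR, 0 of all genes and 0 of the 10 were called in each subset. In Ly6Chi MoMac its unadjusted p was under 0.05 for 1 of the 10 and 1541 of all 15839 genes tested. In Ly6Clo MoMac it was so for 3 of the 10 and 1614 of all 16829. The number of genes detected per library moved with the treatment, with a median of 9749 with vehicle and 13622 with Ac-6-FP in Ly6Chi and of 10379 and 14084 in Ly6Clo MoMac. The median change over all genes was 0.35 in Ly6Chi and 0.91 in Ly6Clo MoMac on the log2 scale. Quantile normalization brought these medians to −0.015 and 0.021, so the changes below are to be read against the medians. Without mouse 13 the median was 0.28 in Ly6Chi and 0.34 in Ly6Clo MoMac, so that the Ly6Clo median rested largely on that mouse.

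In Ly6Clo MoMac, Slc11a1 was the gene whose groups did not overlap, from 988 to 2236 normalized counts with vehicle and from 2464 to 6567 with Ac-6-FP. The levels were 1779 ± 577 (SD, n = 5) and 4418 ± 1569.9 (SD, n = 5), a log2 change of 1.31 (SE 0.33, limma adjusted p = 0.396). Among all genes tested in Ly6Clo MoMac, 1.29% (222) had every Ac-6-FP library above every vehicle library, against 1 of the 10 genes here. In Ly6Chi MoMac it was 0.968% (167) of all genes and 0 of the 10. Over the alternatives that leave out 1 mouse, the adjusted p of the Slc11a1 change in Ly6Clo MoMac ran from 0.177 to 0.71. The marker lists were also compared between these libraries, with no test, and the ranges of vehicle and Ac-6-FP libraries overlapped in each list given. The 6 Ly6Clo macrophage markers summed to 6820 to 23605 with vehicle and 19120 to 49958 with Ac-6-FP, and the 5 measured macrophage markers to 16711 to 31043 and 24879.7 to 43969.7. The T and NK cell markers summed to 22013 to 32586 and 24413 to 48853, the dendritic cell markers to 10817 to 19398 and 7682 to 16449.7, and the neutrophil markers to 9865 to 56721 and 19027 to 125822. The B cell markers summed to 0 to 778 and 766 to 1131, and the endothelial markers to 0 to 2115 and 1008 to 4451. Their part in the values of the 10 genes was not tested.

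Both ferritin chains and heme oxygenase had higher means with Ac-6-FP in Ly6Clo MoMac, with groups that overlapped. Fth1 was at 31889 ± 12356.5 (SD, n = 5) with vehicle and 51897 ± 6603 (SD, n = 5) with Ac-6-FP, a log2 change of 0.79 (SE 0.274, limma adjusted p = 0.516). The highest vehicle value, 47311 in mouse 15, fell within the Ac-6-FP range, and that of mouse 11 was the lowest of the 10. Ftl1 was at 66980.0 ± 10030.1 (SD, n = 5) and 81203 ± 9779 (SD, n = 5), a log2 change of 0.28 (adjusted p = 0.516), and Hmox1 at 1467 ± 896 (SD, n = 5) and 2843 ± 1064 (SD, n = 5), a log2 change of 1.10 (adjusted p = 0.519). Without mouse 13 these values were 0.80 for Fth1, 0.20 for Ftl1 and 1.09 for Hmox1, and 1.39 for Slc11a1 (adjusted p = 0.611 to 0.637). With a covariate for genes detected they were 0.88 for Fth1, 0.09 for Ftl1, 0.59 for Hmox1 and 1.14 for Slc11a1 (adjusted p = 0.948 to 0.964). In Ly6Chi MoMac the log2 values of the same comparison were 0.12 for Fth1, 0.07 for Ftl1 and 0.48 for Hmox1 (limma adjusted p = 0.71, 0.839 and 0.698).

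The biliverdin reductases had other values. Blvra was at 3399.7 ± 2006 (SD, n = 5) with vehicle and 1741 ± 146 (SD, n = 5) with Ac-6-FP in Ly6Clo MoMac, a log2 change of −0.75 (limma adjusted p = 0.561), and the vehicle group held both the lowest and the highest values. Without mouse 13, whose value was the highest, it was −0.495 (adjusted p = 0.677), and with a covariate for genes detected −0.22 (adjusted p = 0.987). In Ly6Chi MoMac its change was −0.38 (adjusted p = 0.659). The value for Blvrb was −0.15 in Ly6Clo (adjusted p = 0.736) and 0.55 in Ly6Chi MoMac (adjusted p = 0.657). That for Slc11a1 was 0.54 in Ly6Chi MoMac (adjusted p = 0.648), where its groups overlapped. With the covariate, the values in Ly6Chi MoMac were 0.08 for Slc11a1, 0.04 for Hmox1, 0.18 for Fth1, −0.03 for Ftl1, −0.12 for Blvra and 0.46 for Blvrb. That for Blvrb in Ly6Clo MoMac was −0.19.

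Of the genes with libraries at 0, Slc40a1 was above 0 in 1 vehicle and 3 Ac-6-FP libraries of Ly6Chi MoMac and in 3 vehicle and 5 Ac-6-FP libraries of Ly6Clo MoMac. Ireb2 was above 0 in 2 vehicle and 5 Ac-6-FP libraries of Ly6Chi and in 1 vehicle and 3 Ac-6-FP libraries of Ly6Clo MoMac. Tfrc was above 0 in 0 vehicle and 2 Ac-6-FP libraries of Ly6Chi and in 2 of each in Ly6Clo MoMac, and Cd163 in 3 libraries of each of the 4 groups. None of these differences passed the threshold (limma adjusted p from 0.564 to 1). The number of genes detected per library, which also moved with Ac-6-FP, ran from 9017 to 14606 with vehicle and 11096 to 15587 with Ac-6-FP in Ly6Chi, and from 5343 to 15723 and 11156 to 15766 in Ly6Clo MoMac. With that number as a covariate, the log2 value of Ireb2 went from 3.65 to 0.66 in Ly6Chi and from 2.57 to 0.83 in Ly6Clo MoMac, and that of Slc40a1 from 2.32 to 1.09 and from 3.04 to 2.03. The value of Tfrc went from 1.63 to 1.47 in Ly6Chi and from 1.395 to 1.71 in Ly6Clo MoMac. For Cd163 it went from −0.48 to −0.14 and from −0.43 to −1.86.

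**Figure D4:**
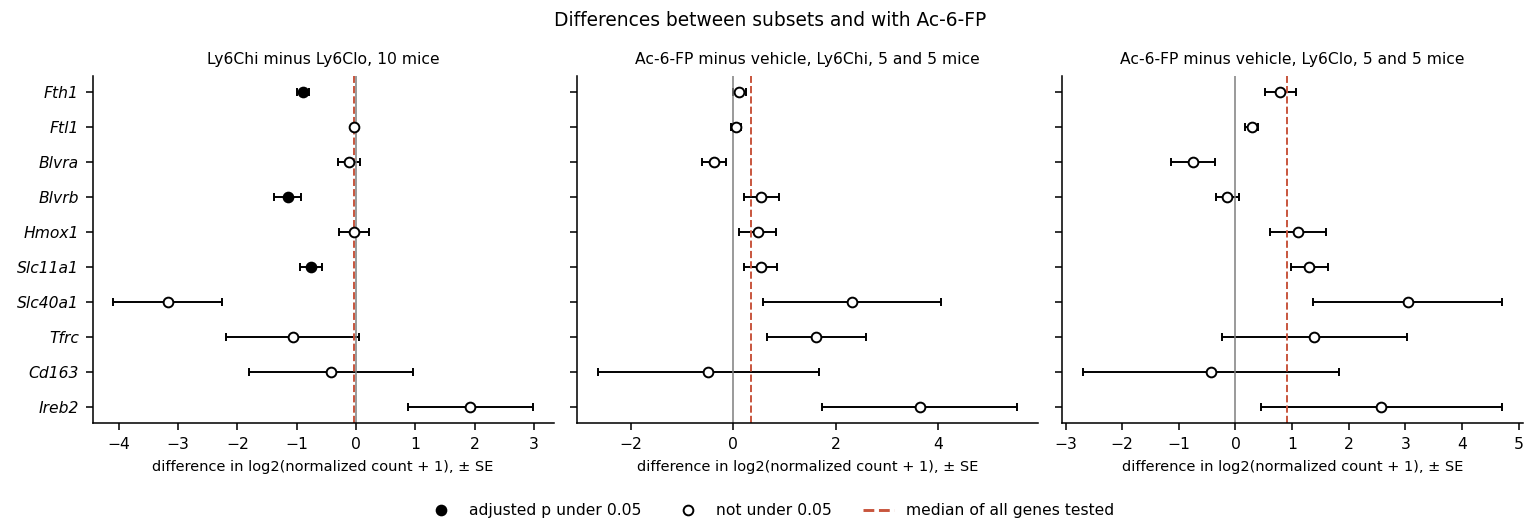
Differences in log2(normalized count + 1) with their standard errors for the 10 genes, between subsets (left, 10 mice) and between Ac-6-FP and vehicle in Ly6Chi (middle) and Ly6Clo MoMac (right), 5 and 5 mice. Filled points, Fth1, Blvrb and Slc11a1 on the left, have an adjusted p under 0.05, and the dashed line is the median of all 17248 genes tested.

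Whether the 2 subsets changed differently was tested on the Ly6Chi minus Ly6Clo differences of 5 Ac-6-FP against 5 vehicle mice. Of all genes, 0% were called by limma, 840 had an unadjusted p under 0.05, and edgeR also called 0, with 313 at an unadjusted p under 0.05. Among the 10 genes, 2 had an unadjusted p under 0.05. For Fth1 the change in Ly6Chi minus that in Ly6Clo MoMac was −0.67 on the log2 scale (SE 0.195, limma adjusted p = 0.83). For Ftl1 it was −0.22 (SE 0.08, limma adjusted p = 0.83). The values of these genes behind this comparison are those given above, and it shares its libraries with both comparisons of Ac-6-FP with vehicle.

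Of 90 other genes of heme and iron handling in 8 lists, 86 were in the table and 73 could be tested. Between the subsets 1 was called higher in Ly6Chi and 3 higher in Ly6Clo MoMac, 4 of 73 beside the 5.22% of all genes, and 0 were called for Ac-6-FP in either subset or for the difference between subsets. In heme breakdown and heme transport, 1 of 10 tested genes was called. This was Hp, encoding haptoglobin, which binds free hemoglobin, at 28769 to 48583 normalized counts in Ly6Chi vehicle, 36300.3 to 43755 in Ly6Chi Ac-6-FP, 9803 to 22697 in Ly6Clo vehicle and 13334 to 31862 in Ly6Clo Ac-6-FP libraries. It was higher in Ly6Chi in 10 of 10 mice, by 1.13 on the log2 scale (SE 0.144, limma adjusted p = 0.000528). Hepatocytes are the main source of haptoglobin, and the hepatocyte markers given above were lower in Ly6Chi than in Ly6Clo libraries in their medians, of 748 and 612 against 1749 and 1640.4 in vehicle and Ac-6-FP mice. The part of hepatocyte RNA in the Hp values was not tested.

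In heme synthesis 1 of 12 tested genes was called, Alad, the enzyme that forms porphobilinogen. It was at 174 ± 87 (SD, n = 10) in Ly6Chi and 655 ± 345 (SD, n = 10) in Ly6Clo MoMac, a log2 difference of −1.89 (SE 0.354, limma adjusted p = 0.00791) with the Ly6Clo value the higher in 10 of 10 mice. The median difference over this list was 0.20, against −0.03 over all genes.

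In iron uptake and reduction, 1 of 9 tested genes was called, Hfe, whose product is a partner of the transferrin receptors and is altered in hereditary hemochromatosis. Hfe was at 712 ± 314 (SD, n = 10) in Ly6Chi and 3688 ± 1496 (SD, n = 10) in Ly6Clo MoMac, a log2 difference of −2.41 (SE 0.207, limma adjusted p = 2.5e-05). Its Ly6Clo value was the higher in 10 of 10 mice. Within the vehicle mice alone, Hp, Hfe and Alad kept their direction and did not pass the threshold (adjusted p = 0.0689, 0.081 and 0.424). Among 11 tested NRF2 and BACH1 targets, genes of the oxidative stress response that includes Hmox1, only Slc7a11, the cystine importer, was called. It was at 0 to 94.7 and 0 to 139 in Ly6Chi vehicle and Ac-6-FP libraries and at 4.17 to 263 and 0 to 362 in the Ly6Clo ones. Its adjusted p of 0.0355 rose above the threshold with edgeR (0.166), with no filter on low counts (0.0581), without pairing (0.057), within the vehicle (0.359) or Ac-6-FP mice alone (0.231), and without any 1 of mice 12, 14, 15, 16, 19 and 20 (0.081 to 0.1).

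In the other 4 lists 0 genes were called between the subsets. Of iron export and hepcidin, 2 of 7 genes in the table could be tested, the ferroxidase Cp, at 0 in 10 of 20 libraries (adjusted p = 0.0892, and 0.0322 without mouse 16), and its relative Heph, at 0 in 19 (adjusted p = 0.621). Of ferritin turnover and iron chaperones the 2 most abundant were Fbxl5, which targets iron regulatory protein 2 for degradation, with a log2 difference of 0.36 (adjusted p = 0.418), and the iron chaperone Pcbp2, with 0.21 (adjusted p = 0.643). Of the iron sensing list they were the transcription factors Nfe2l2 (NRF2), at 0.29 (adjusted p = 0.587), and Atf3, at 0.23 (adjusted p = 0.553). Of mitochondrial iron and iron-sulfur cluster genes they were Isca2, at 0.15 (adjusted p = 0.79), and Isca1, at −0.47 (adjusted p = 0.594), both assembly factors.

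**Figure D5:**
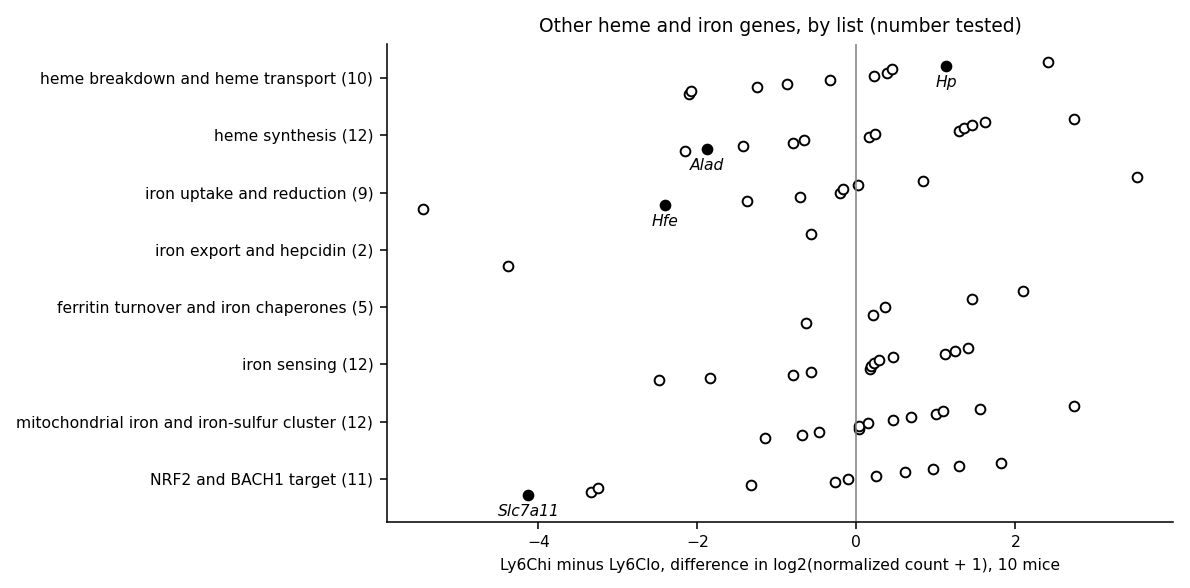
Difference between Ly6Chi and Ly6Clo MoMac in log2(normalized count + 1) over 10 mice for the 73 tested genes of the 8 lists, 1 point per gene, with the number tested beside each list. Filled points are the 4 genes with an adjusted p under 0.05, Hp to the right of 0 and Alad, Hfe and Slc7a11 to the left.

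Red blood cell RNA stood high in a few libraries. The 6 measured erythroid markers summed to 55102 in the Ly6Clo Ac-6-FP library of mouse 16, 27955 in the Ly6Clo vehicle library of mouse 12 and 10946 in the Ly6Chi Ac-6-FP library of mouse 19, and to between 168 and 4464 in the other 17. Slc4a1 and Epor were at 0 in every library. In those 3 libraries Hmox1 was at 2198, 529 and 2783 normalized counts, and 529 was the lowest Hmox1 value of all 20 libraries.

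The genes whose levels followed each of these most closely over the 20 libraries were taken from 5813 genes with a mean of at least 100, by Pearson's r of log2(normalized count + 1), as a description. The 20 libraries share subset, mouse, treatment and depth, and no p is given. For Fth1 they were Gm16712 (r = 0.819), Limd2 (0.819) and Ebi3 (0.814), for Blvrb Acp5 (0.868), Nr1h3 (0.858) and Rap1a (0.843), and for Slc11a1 Galnt6 (0.832) and Arf4 (0.815). For Hmox1 they were Apbb1ip (0.877), Adgre5 (0.866) and Tbc1d17 (0.852), for Blvra Abracl (0.871), Timm17a (0.839) and Gm10012 (0.828), and for Slc40a1 Zmynd15 (0.792), Dapk2 (0.777) and Mmp9 (0.775). For Ftl1 they were the row of Mir692-2 and Mir692-3 (0.91) and Zfp36 (0.835), and for Ireb2 Fos (0.841), Efl1 (0.838) and Tmem131 (0.833). For Tfrc and Cd163, at 0 in many libraries, they were Szrd1 (0.704), Bbs12 (0.632) and Mknk2 (0.621), and Drg1 (0.653), Med8 (0.653) and Hs3st3b1 (0.645).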

How the data were processed

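The authors sequenced polyadenylated RNA of sorted cells from a low-input library kit, aligned reads to the mouse genome (mm10) with STAR 2.4.0, and counted them per gene of FAST DB. The deposited signal values are these gene counts divided by 1 DESeq2 size factor per library. The labels' processing notes also name FastQC, Picard and SAMtools. Whether counting used strand is not given in the sources used here. Whole reads were recovered from the steps of the values (100.0% of values above 0 within a tolerance of 0.0075 normalized counts), giving 5693049 to 18682437 reads per library. Without molecular identifiers, limits cover counting error only. Of all rows, 60.5% carried no symbol and stayed in the fits.

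Genes with a mean of at least 10 in 1 or more of the 4 groups (17248) were tested with limma 3.58.1 in R 4.3.3 on log2(normalized count + 1), with a variance prior that follows the mean level. Fold changes are on that scale, which understates those of low genes. Subsets were compared by the difference within each mouse with treatment as a term, Ac-6-FP by separate fits of 5 against 5 mice, and the difference of the 2 changes by the treatment term of the first fit. P-values were adjusted over all genes (Benjamini-Hochberg, threshold 0.05, two-sided). The scripts were tested on simulated data. Alternatives were other pseudocounts, filters and scaling, a covariate for genes detected, edgeR 4.0.16 on the recovered reads, each treatment alone, no pairing, and each mouse left out. Libraries were paired by the number that the titles of both subsets share, taken here as the mouse. The paper also used a paired test between the subsets. The residuals of the 2 libraries of a mouse correlated by 0.003 to 0.25 over 10 mice (median 0.034), and those of different mice by −0.114 to 0.082 (median −0.005). Libraries of a group came from different mice.

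The 10 genes and all lists were chosen with earlier results of these data known. Genes named beside the 10 are list genes past the threshold, the 2 most abundant tested genes of a list with none, and the 3 most correlated genes, some of which are not reported here. Figures were drawn with matplotlib 3.10.9.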

Additional observations from a re-analysis of the deposited data

Results flagged for a closer look

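In 40 groups of 5 libraries examined, 10 genes in 4 groups, 2 held a library whose distance from the nearest of the others exceeded Dixon's 95% critical value of 0.71 as a share of the range. Chance flags about 1 in 20 groups of continuous values, a rate that does not hold for these 2, since with 4 libraries at 0 any single value above 0 is past the limit. Slc40a1 was at 38.94 normalized counts in the Ly6Chi vehicle library of mouse 11 and listed at 0 in the other 4. Ireb2 was at 175.66 in the Ly6Clo vehicle library of mouse 11 and listed at 0 in the other 4. Mouse 11 gave the vehicle libraries with the most genes detected in both subsets, 14606 in Ly6Chi and 15723 in Ly6Clo MoMac.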

How the results depend on the processing

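Between the subsets, Fth1 and Blvrb kept their direction in all 20 alternatives, and passed the threshold in 19 and 18 of them, and Slc11a1 kept its direction in all 20 and passed in 11. The count of genes called, 900 (312 higher and 588 lower in Ly6Chi MoMac), was 1848 (1097 and 751) with genes detected as a covariate, 1090 (482 and 608) with quantile normalization, 511 with edgeR, 158 in the vehicle mice alone and 655 to 1151 without 1 mouse. For Ac-6-FP in Ly6Chi MoMac, 20 genes became 4 with a filter at 100, 3 with quantile normalization, 9 with the covariate, 0 with edgeR, and 11 (without mouse 13) to 158 (without mouse 11). In Ly6Clo MoMac, 14 became 9 with a pseudocount of 10, 2 with the filter at 100, 2 with quantile normalization, 7 with the covariate, 0 with edgeR, and 9 (without mouse 13 or 20) to 124 (without mouse 11). For the difference of the 2 changes, 0 became 2 with the filter at 100 and 1 with quantile normalization, and 0 without any 1 mouse. The causes were not tested. None of the 10 genes was called for Ac-6-FP or for the difference of the 2 changes under any alternative run.

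The pairing by mouse had the following effect. With no replicate block, 987 genes were called between the subsets, 2 of them among the 10 genes (Slc11a1 had an adjusted p of 0.0694), and 3 for the difference of the 2 changes. Of the list genes called, Slc7a11 was lost without it.

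Signs changed in genes that were not called. Between the subsets, Hmox1 turned to 0.273 in the vehicle mice and ran from −0.16 to 0.112 without 1 mouse, Blvra turned to 0.069 in the Ac-6-FP mice, and Ftl1 to 0.421 with quantile normalization, 0.000 with edgeR and 0.075 in the vehicle mice. Cd163 turned to 0.237 with the covariate and ran from −1.398 to 0.522 without 1 mouse. For Ac-6-FP in Ly6Chi MoMac, Ftl1 turned to −0.028 with the covariate and ran from −0.003 to 0.118 without 1 mouse, and Cd163 from −1.459 to 0.394. In Ly6Clo MoMac Cd163 ran from −1.506 to 0.54. For the difference of the 2 changes, Slc40a1 turned to 0.854 with edgeR, and Tfrc to −0.455 with a pseudocount of 10 and −0.110 with quantile normalization, running from −1.155 to 1.721 without 1 mouse. Cd163 turned to 0.431 with quantile normalization, 0.722 with the covariate and 1.000 with edgeR, running from −1.941 to 1.898 without 1 mouse, and Ireb2 ran from −0.121 to 2.778. In Slc40a1, Tfrc, Cd163 and Ireb2, the 8, 14, 8 and 9 libraries of 20 at 0 and the constant added before the logarithm limit what can be said of the size of a difference, and why these libraries are at 0 was not tested.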
